A study of Mus musculus with 8 samples.

Results

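Imprinted genes, which are transcribed mainly from the copy inherited from 1 parent, were examined in mouse embryoid body cells that were labelled Tet triple knockout (TKO) or wild type (WT). A list of 34 genes was used, 20 of them expressed from the paternal copy, 13 from the maternal copy and 1, Gnas, from both copies depending on transcript and tissue. The parental assignments are textbook knowledge, and the alleles themselves were not measured. A gene counted as a member when it had a row among the 27998 rows of the count tables and at least 10 unique molecular identifiers (UMIs, each standing for 1 captured RNA molecule) over both libraries. The maternally expressed long noncoding RNA gene Rian had no row, and the other 33 genes passed, so that 20 paternally expressed genes, 12 maternally expressed genes and Gnas were compared. Both groups came from the embryonic stem cell line E14-NKX2-5-EmGFP, which carries a green fluorescent reporter for the cardiac gene Nkx2-5. The cells had been grown on feeder layers of mitomycin C treated mouse embryonic fibroblasts and differentiated, with leukemia inhibitory factor withdrawn, as embryoid bodies, first in hanging drops and then in non-adhesive dishes, with no further treatment. The TKO group was 1 single-cell RNA library of day 5 with the Tet genes disrupted, and the WT group was 1 such library of day 5. The series' title places the comparison in differentiation toward cardiomyocyte progenitors. Whether either library came from 1 clone or from pooled embryoid bodies is not given in the sources used here. The 6 pull-downs of 5-hydroxymethylcytosine from WT cells at days 0, 2 and 5 were not analysed here.

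Genomic imprints are marks of DNA methylation set on 1 parental copy in the germ line and kept in the embryo by factors such as ZFP57, TRIM28 and DNMT1. Many imprinted genes lie in clusters ruled by a shared control region, where an unmethylated copy can transcribe a long noncoding RNA that silences its neighbours. TET enzymes oxidise 5-methylcytosine to 5-hydroxymethylcytosine and in the mouse take part in erasing imprints in primordial germ cells. In the embryo many paternally expressed genes favour growth, such as Igf2, and several maternally expressed ones restrain it, such as Igf2r, Cdkn1c, Phlda2 and Grb10.

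Start-site windows in the RefSeq tables for GRCm38.p6, from 250 bases before to 50 bases after a start, were found for 28 of the 34 genes, in 50 windows. The hexamer TGCCGC, the letters bound by ZFP57 when methylated, was searched on both strands, where its complement reads GCGGCA. It occurred in 11 of the 50 windows (22.0%), against 11.6% of all 32851 windows in the table. Among the 27 genes with both a window and a count row, 10 held it in at least 1 window (37.0%), namely Grb10, Igf2, Meg3, Mest, Nap1l5, Nnat, Plagl1, Snrpn, Zdbf2 and Zim1, against 13.1% of all 27025 genes. These windows held a median of 13.5 CpG pairs, against 7 over all windows, and a gene with several starts had more chances of a match. The 4 windows below are shown because their genes carry the results that follow: Dlk1 and Mest had among the lowest TKO to WT ratios, and Plagl1 and Nnat shared cells. Capitals mark the hexamer on either strand.
Dlk1, chr12:109452573-109452872, plus strand: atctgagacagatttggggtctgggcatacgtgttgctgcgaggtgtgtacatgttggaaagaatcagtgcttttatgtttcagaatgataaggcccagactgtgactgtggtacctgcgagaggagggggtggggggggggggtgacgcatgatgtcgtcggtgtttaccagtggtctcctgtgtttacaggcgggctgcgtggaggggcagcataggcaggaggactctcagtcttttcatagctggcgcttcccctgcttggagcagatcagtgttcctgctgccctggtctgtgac
Mest, chr6:30737800-30738099, plus strand: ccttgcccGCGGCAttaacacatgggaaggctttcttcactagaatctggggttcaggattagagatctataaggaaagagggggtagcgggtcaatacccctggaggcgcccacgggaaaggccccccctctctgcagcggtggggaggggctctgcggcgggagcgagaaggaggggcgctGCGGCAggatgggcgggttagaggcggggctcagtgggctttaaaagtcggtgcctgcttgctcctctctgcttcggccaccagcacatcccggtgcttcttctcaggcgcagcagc
Plagl1, chr10:13090582-13090881, plus strand: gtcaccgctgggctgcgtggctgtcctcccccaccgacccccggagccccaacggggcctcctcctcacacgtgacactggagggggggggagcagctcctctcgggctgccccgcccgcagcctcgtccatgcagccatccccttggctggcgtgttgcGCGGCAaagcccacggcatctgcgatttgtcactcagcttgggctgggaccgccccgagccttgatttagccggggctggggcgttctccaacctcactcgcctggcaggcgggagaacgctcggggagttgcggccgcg
Nnat, chr2:157559828-157560127, plus strand: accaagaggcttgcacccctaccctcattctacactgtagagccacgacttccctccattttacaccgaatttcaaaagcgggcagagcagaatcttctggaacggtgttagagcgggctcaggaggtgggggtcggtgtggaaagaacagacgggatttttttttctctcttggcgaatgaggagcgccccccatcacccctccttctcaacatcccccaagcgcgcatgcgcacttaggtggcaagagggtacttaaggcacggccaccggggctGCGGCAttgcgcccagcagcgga
The Mest window is the second of 3 listed for that gene and held the hexamer at 2 positions. The Plagl1 and Nnat windows held it once, and the Dlk1 window did not hold these letters. A match describes the letters and shows no binding or methylation in these cells.

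After the filters the TKO library held 3194 cells and 33446639 UMIs, and the WT library 4389 cells and 37503810 UMIs. A TKO cell had a median of 9672 UMIs and a WT cell 7847. Levels are UMIs divided by the library's total and scaled to a common total (CPM), with exact Poisson 95% intervals, and ratios are TKO over WT with exact binomial 95% intervals. With 1 library per genotype there was no replicate check and no test, so intervals cover counting error only, and a gene was called higher or lower when its log2 ratio passed 2-fold. A difference in a library sum cannot tell fewer cells that use a gene from less RNA per cell. Transcripts of the targeted genes were still counted in TKO cells: Tet1 stood at 22.8 CPM in TKO and 12.3 CPM in WT cells, Tet2 at 4.60 CPM in TKO and 6.83 CPM in WT cells, and Tet3 at 20.3 CPM in TKO and 29.1 CPM in WT cells. Which parts of the genes were disrupted is not given in the sources used here, so these counts do not check the label.

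Imprinted genes were more often lower than higher in the TKO library, whichever parental copy they are expressed from. Of the 33 genes, 14 were at least 2-fold lower and 2 at least 2-fold higher in TKO, and 17 were neither. Over all 15344 genes with at least 10 UMIs, 12.3% were called lower and 13.5% higher by the same rule. The median log2 ratio of the 33 genes was -0.95, against 0.14 over all genes, and 26 of them lay below 0. Among the paternally expressed genes 9 of 20 were lower and 1 higher, with a median log2 ratio of -0.91. Among the maternally expressed genes 5 of 12 were lower and 1 higher, with a median of -0.96. The sum over the paternally expressed genes was 1615 CPM in TKO and 4013 CPM in WT cells, a ratio of 0.402 (0.398 to 0.406). The sum over the maternally expressed genes was 2211 CPM in TKO and 5058 CPM in WT cells, a ratio of 0.437 (0.434 to 0.441). Meg3 alone made up 1484 CPM of this maternal sum in TKO and 3170 CPM in WT cells, so the sum mainly follows that gene. Over the whole library both parental classes thus lay at similar places, and each held genes on both sides of an equal level.

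**Figure D1:**
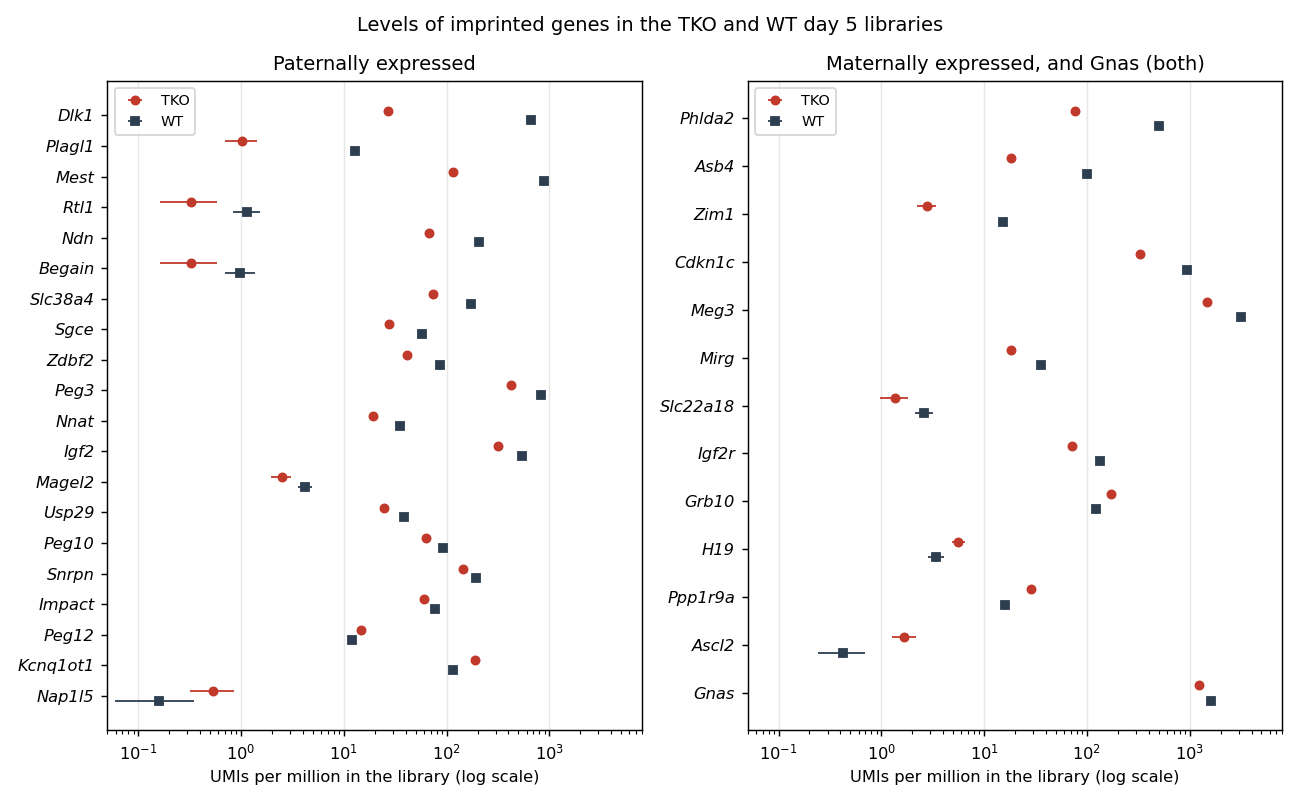
Level of each imprinted gene in the TKO (circles) and WT (squares) day 5 libraries, in CPM on a log axis, with paternally expressed genes on the left and maternally expressed genes and Gnas on the right; bars are exact Poisson 95% intervals, often smaller than the symbols. Dlk1 lay at 27.1 CPM in TKO and 655 CPM in WT cells, while Kcnq1ot1, Grb10, H19, Ppp1r9a, Peg12, Ascl2 and Nap1l5 were higher in TKO.

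In the Dlk1-Meg3 cluster on chromosome 12 the genes of both parental classes were lower in TKO, to different extents. Dlk1 (chr12:109452485-109463336), a transmembrane ligand of the Notch family, was counted 906 times in TKO and 24571 times in WT cells. Its level was 27.1 CPM in TKO and 655 CPM in WT cells, a ratio of 0.0413 (0.0387 to 0.0442), the lowest of the 33. Meg3 (chr12:109540996-109571729), the maternally expressed long noncoding RNA of the cluster, stood at 1484 CPM in TKO and 3170 CPM in WT cells, a ratio of 0.468 (0.463 to 0.473). The paternally and the maternally expressed gene of the pair were thus both lower, rather than changing places. Mirg, a maternally expressed noncoding RNA that hosts microRNAs, was at 18.1 CPM in TKO and 35.4 CPM in WT cells, a ratio of 0.512 (0.464 to 0.564) just short of 2-fold. Rtl1, a retrotransposon-derived gene needed in placental vessels, had 11 UMIs in TKO and 43 in WT cells, a ratio of 0.287 (0.133 to 0.566). Begain, the gene of a synaptic protein, had 11 UMIs in TKO and 37 in WT cells, a ratio of 0.333 (0.153 to 0.667). Rtl1 and Begain rest on few molecules. The strand setting of the authors' counting is not given in the sources used here, so reads of Rtl1 and of transcripts antisense to it cannot be told apart.

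Genes of the Igf2 pathway were split. Igf2 (chr7:142650768-142666816), a fetal growth factor, was at 315 CPM in TKO and 544 CPM in WT cells, a ratio of 0.580 (0.566 to 0.594). H19 (chr7:142575530-142578146), the maternally expressed noncoding RNA that shares enhancers with Igf2, was at 5.62 CPM in TKO and 3.39 CPM in WT cells, from 188 TKO and 127 WT UMIs, a ratio of 1.66 (1.32 to 2.10). In this pair the paternally expressed gene was lower and the maternally expressed one higher, each by less than 2-fold. Igf2r (chr17:12682406-12769706), the receptor that clears IGF2 from the cell surface, was at 71.2 CPM in TKO and 135 CPM in WT cells, a ratio of 0.528 (0.503 to 0.555). Grb10 (chr11:11930499-12037428), an adaptor that dampens insulin and IGF receptor signalling, was at 173 CPM in TKO and 122 CPM in WT cells, a ratio of 1.42 (1.36 to 1.47). Plagl1 (chr10:13090832-13131694), a zinc finger transcription factor known in the mouse to act on other imprinted genes, had 34 UMIs in TKO and 478 in WT cells. That is 1.02 CPM in TKO and 12.7 CPM in WT cells, a ratio of 0.0798 (0.0546 to 0.113).

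In the Kcnq1 cluster on chromosome 7 the noncoding RNA was higher in TKO, while 3 of the 4 listed coding genes had ratios below 1. Kcnq1ot1 (chr7:143213111-143296547), the paternally expressed antisense RNA that silences the cluster in cis, was at 188 CPM in TKO and 116 CPM in WT cells, a ratio of 1.61 (1.55 to 1.68). Phlda2, a maternally expressed pleckstrin-homology protein that limits placental growth, was at 76.8 CPM in TKO and 509 CPM in WT cells, a ratio of 0.151 (0.145 to 0.157). Cdkn1c, the maternally expressed cell cycle inhibitor p57, was at 329 CPM in TKO and 949 CPM in WT cells, a ratio of 0.347 (0.340 to 0.355). Both restrainers of growth were thus called lower. Slc22a18, a maternally expressed membrane transporter, had 45 UMIs in TKO and 98 in WT cells, a ratio of 0.515 (0.353 to 0.740). Ascl2, a transcription factor of the placenta that is expressed from the maternal copy there, had 56 UMIs in TKO and 16 in WT cells, a ratio of 3.92 (2.22 to 7.33). It is the 1 maternally expressed gene called higher, at 1.67 CPM in TKO and 0.427 CPM in WT cells. Of its 56 TKO UMIs, 16 lay in 1 cell, so the Ascl2 interval is too narrow. The Ascl2 ratio without that cell was not computed. Without strand, reads of Kcnq1ot1 cannot be told from those of Kcnq1, which it overlaps.

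The Peg3 and Peg10-Sgce clusters held lower genes of both classes. Peg3, a paternally expressed zinc finger gene, was at 427 CPM in TKO and 827 CPM in WT cells, a ratio of 0.516 (0.506 to 0.527) just short of 2-fold. Usp29, a paternally expressed ubiquitin protease gene beside it, was at 24.5 CPM in TKO and 38.6 CPM in WT cells, a ratio of 0.637 (0.584 to 0.694). Zim1, a maternally expressed zinc finger gene next to both, was at 2.78 CPM in TKO and 15.3 CPM in WT cells, a ratio of 0.182 (0.145 to 0.227). All 3 were lower in TKO, and the maternally expressed one had the lowest ratio. Asb4, a maternally expressed subunit of ubiquitin ligases, was at 18.2 CPM in TKO and 100.2 CPM in WT cells, a ratio of 0.182 (0.167 to 0.198). Sgce, the paternally expressed epsilon-sarcoglycan gene, was at 27.5 CPM in TKO and 57.8 CPM in WT cells, a ratio of 0.476 (0.440 to 0.514). Peg10, a paternally expressed retrotransposon-derived gene of the placenta, was at 62.4 CPM in TKO and 91.8 CPM in WT cells, a ratio of 0.679 (0.643 to 0.718). Ppp1r9a, which encodes the actin-binding protein neurabin and is imprinted mainly in extraembryonic tissue, went the other way, at 28.3 CPM in TKO and 16.1 CPM in WT cells, a ratio of 1.76 (1.59 to 1.95).

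In the Snrpn-Ndn cluster, where the listed genes are paternally expressed, the ratios ran through equality. Ndn, which encodes the growth-restraining protein necdin, was at 67.3 CPM in TKO and 208 CPM in WT cells, a ratio of 0.323 (0.308 to 0.338). Magel2, a related gene of protein trafficking, had 83 UMIs in TKO and 157 in WT cells, a ratio of 0.593 (0.449 to 0.778). Snrpn, which encodes a protein of the splicing machinery, was at 146 CPM in TKO and 194 CPM in WT cells, a ratio of 0.749 (0.722 to 0.777). Peg12, which encodes a binding partner of the kinase GSK3, was at 14.7 CPM in TKO and 12.1 CPM in WT cells, a ratio of 1.22 (1.07 to 1.38). Ndn was the 1 gene of the 4 called lower. The Snurf row, which shares a transcript with Snrpn, was 0 in both libraries.

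Of the genes outside the clusters, Mest (chr6:30733506-30748466), a hydrolase gene named for its expression in mesoderm, was at 116 CPM in TKO and 878 CPM in WT cells, a ratio of 0.132 (0.128 to 0.137). Slc38a4, an amino acid transporter gene, was at 74.4 CPM in TKO and 173 CPM in WT cells, a ratio of 0.430 (0.410 to 0.450). Zdbf2, a zinc finger gene that promotes growth after birth in the mouse, was at 41.1 CPM in TKO and 85.3 CPM in WT cells, a ratio of 0.481 (0.451 to 0.513). These 3 paternally expressed genes were called lower. Nnat (chr2:157560078-157562525), a small membrane protein gene inside the gene Blcap, was at 19.3 CPM in TKO and 35.1 CPM in WT cells, a ratio of 0.552 (0.501 to 0.607). Of the Nnat UMIs, 101 of 647 in TKO lay in 1 cell and 65 of 1315 in WT lay in 1 cell, so this interval is too narrow. The Nnat ratio without these cells was not computed. Impact, a restrainer of the stress kinase GCN2, was at 60.2 CPM in TKO and 77.9 CPM in WT cells, a ratio of 0.772 (0.729 to 0.818). Gnas, which encodes the stimulatory G protein subunit, was at 1220 CPM in TKO and 1598 CPM in WT cells, a ratio of 0.763 (0.754 to 0.773), and its row joins transcripts of opposite parental origin. Nap1l5, a gene inside Herc3, was the 1 paternally expressed gene called higher, and it had 18 UMIs in TKO and 6 in WT cells, a ratio of 3.36 (1.28 to 10.4).

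For the genes furthest apart, the share of cells with a UMI differed as the level did. With each cell thinned to 4000 UMIs, which left out 190 TKO and 372 WT cells that were shallower, Dlk1 was detected in 7.12% of TKO and 72.2% of WT cells (12.4% and 79.7% before thinning). Mest was detected in 19.2% of TKO and 73.3% of WT cells (28.9% and 80.1% before thinning). Phlda2 was detected in 14.9% of TKO and 54.3% of WT cells (24.1% and 64.5% before thinning). Erythroid-gated cells were assumed to lack these genes. Among thinned ones, Dlk1 was found in 0 of 17 TKO cells and in 16.7% of 424 WT cells. Mest was found in 0 of 17 TKO cells and 19.8% of WT cells. The TKO share of Dlk1 over all cells was thus below the share in WT erythroid-gated cells, whose median depth before thinning was 9379 UMIs. The libraries differed in Dlk1 level, so the WT erythroid share sets no background for TKO cells. Meg3 differed in amount per cell more than in share: it was detected in 80.2% of TKO and 87.5% of WT cells, with a mean of 7.70 UMIs per detecting TKO cell and 14.7 per detecting WT cell.

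The libraries also differed in the kinds of cell they held. Cells were gated by the number of marker genes with a UMI, and 2035 WT cells (46.4%), but only 6 TKO cells (0.188%), passed the fibroblast gate. Of the collagen markers, Col1a1 was detected in 76.5% of those WT cells, Col1a2 in 84.9%, Col3a1 in 88.0%, Col5a1 in 49.9% and Col6a1 in 13.9%. Of the other markers, Acta2 was detected in 98.0%, Postn in 88.8%, Lum in 55.6%, Fbn1 in 43.9% and Tagln in 39.5%. Lox was detected in 1.03% and Thy1 in 0.737%. Of the 2035 WT cells of the gate, 1997 also held a UMI of Hand1, a marker of the lateral mesoderm gate used below. Whether these cells were feeders or cells of the embryoid body was not tested. The gate held 48.8% of all WT UMIs, and it held 69.9% of the WT UMIs of Dlk1, 70.9% of Plagl1, 68.4% of Asb4 and 64.3% of Meg3. With the gate left out of both libraries, 10 of the 33 imprinted genes were lower and 2 higher in TKO, against 10.4% and 12.3% of all genes, and their median log2 ratio was -0.57. The Dlk1 ratio was then 0.0673 (0.0626 to 0.0723), that of Mest 0.157 (0.151 to 0.162) and that of Phlda2 0.182 (0.174 to 0.191). Igf2, at 314 CPM in TKO and 350 CPM in WT cells without the gate, had a ratio of 0.897 (0.869 to 0.926). Dlk1, Plagl1, Asb4, Zim1 and Igf2 were the genes whose ratio moved by more than 1.5 times when the gate was left out, all toward equality, and Plagl1 then stood at 0.139, Asb4 at 0.305 and Zim1 at 0.330. The 10 genes called lower without the gate were Dlk1, Plagl1, Mest, Phlda2, Rtl1, Asb4, Zim1, Ndn, Cdkn1c and Begain, and all 10 were among the 14 of the whole library.

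**Figure D2:**
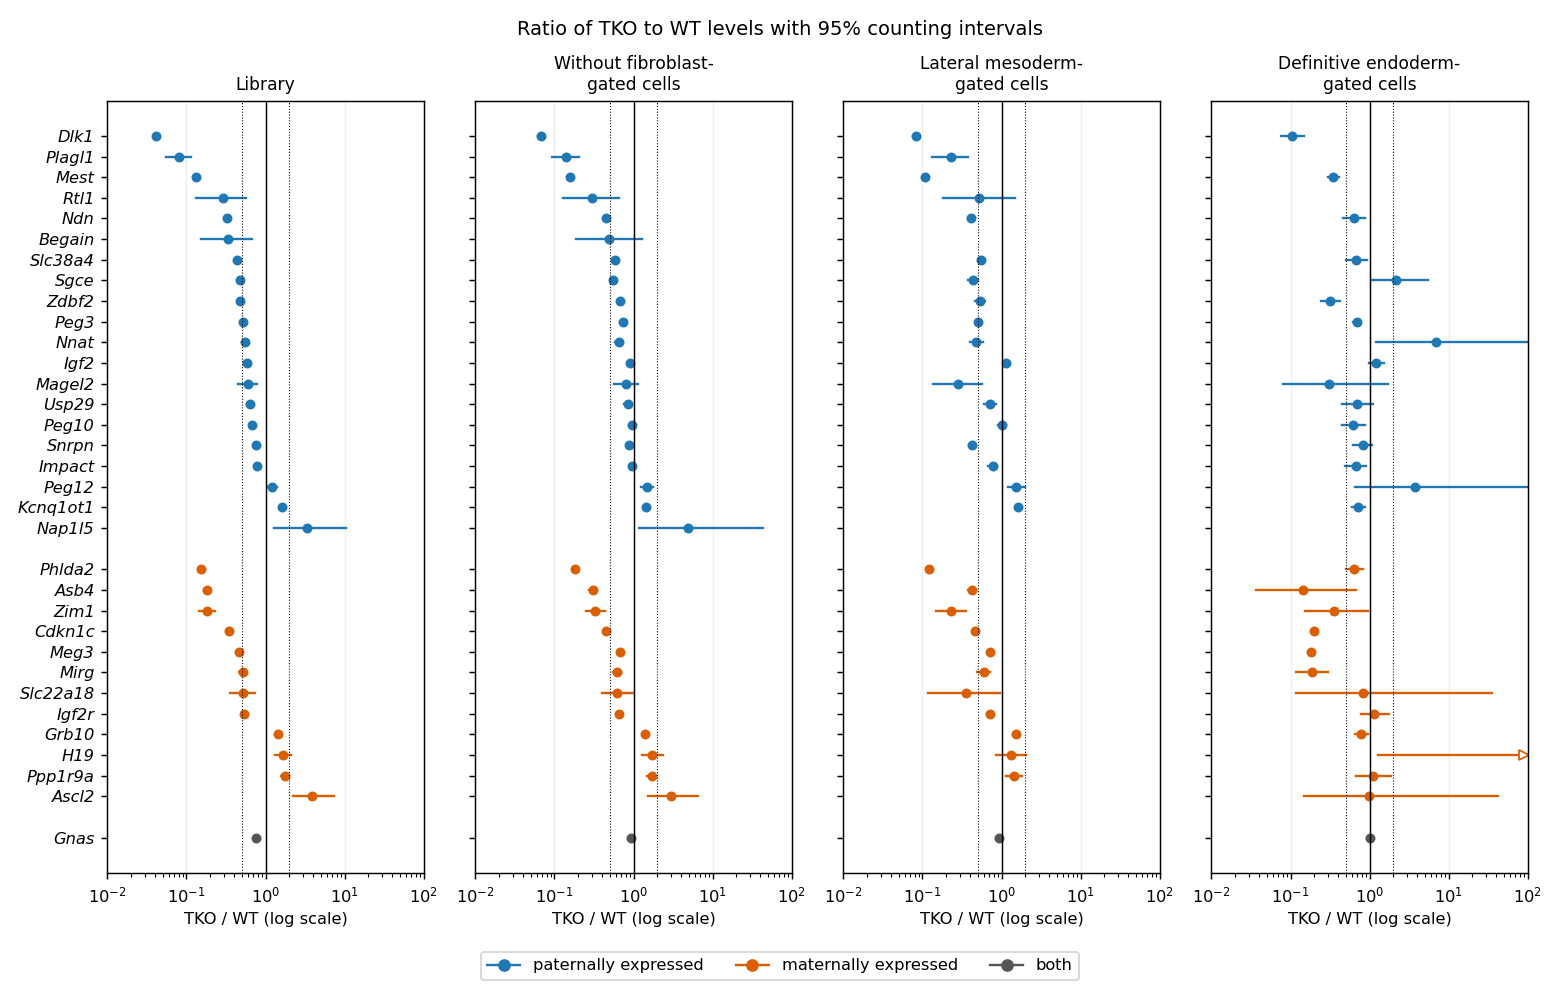
Ratio of the TKO to the WT level of each imprinted gene with at least 10 UMIs over both libraries, on log axes, in the whole library, without fibroblast-gated cells, in lateral mesoderm-gated cells and in definitive endoderm-gated cells; bars are exact 95% counting intervals, dotted lines mark 2-fold, and the open triangle marks a gene with 0 WT UMIs. Dlk1 and Mest stayed left of the 2-fold line in all 4 panels, while Kcnq1ot1 and Grb10 lay right of 1 in the first 3 panels and left of it in the fourth.

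Of the 9 marker gates, lateral mesoderm and definitive endoderm held at least 50 cells of both libraries. The lateral mesoderm gate, defined by at least 4 of 12 markers such as Hand2, Gata6 and Foxf1, held 924 TKO and 736 WT cells. Its markers were passed by 1171 TKO and 2222 WT cells, and those left out had also passed another gate. With all passing cells counted, 15 of 27 genes with at least 50 UMIs had ratios outside their intervals in the gate, and 2 changed direction. Within the gate, 13 of the 30 imprinted genes with at least 10 UMIs were lower and 0 higher in TKO. Over all genes in the gate these shares were 9.91% and 9.79%, and the median log2 ratio of the imprinted genes was -0.92. Of the paternally expressed genes 8 of 18 were lower, and of the maternally expressed genes 5 of 11. The summed level in the gate had a ratio of 0.458 (0.449 to 0.467) over the 20 paternally expressed genes. Over the 12 maternally expressed genes it was 0.586 (0.576 to 0.595). Dlk1 was at 52.6 CPM in TKO and 634 CPM in WT cells of the gate, a ratio of 0.0830 (0.0753 to 0.0912). Mest was at 116 CPM in TKO and 1065 CPM in WT cells, a ratio of 0.109 (0.102 to 0.116), and Phlda2 at 95.5 CPM in TKO and 781 CPM in WT cells, a ratio of 0.122 (0.114 to 0.132). These 3 genes were the furthest below 1 in the gate.

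Other genes of the lateral mesoderm gate differed from their library ratios in either direction. Meg3 was at 2124 CPM in TKO and 3014 CPM in WT cells of the gate, a ratio of 0.705 (0.691 to 0.719), and so was not called. Igf2 was at 537 CPM in TKO and 472 CPM in WT cells, a ratio of 1.14 (1.09 to 1.19), on the other side of 1 from its library value. Cdkn1c was at 512 CPM in TKO and 1107 CPM in WT cells, a ratio of 0.463 (0.446 to 0.480). Snrpn, not called over the library, lay further from equality here, at 106 CPM in TKO and 250 CPM in WT cells, a ratio of 0.426 (0.392 to 0.462). Plagl1 had 21 UMIs in TKO and 60 in WT cells, a ratio of 0.229 (0.132 to 0.382), and Zim1 had 30 UMIs in TKO and 85 in WT cells, a ratio of 0.231 (0.147 to 0.354). Asb4 had a ratio of 0.422 (0.371 to 0.481), Ndn 0.410 (0.377 to 0.446), Sgce 0.433 (0.375 to 0.499) and Nnat 0.481 (0.396 to 0.584). The genes above 1 with intervals that did not reach it were Kcnq1ot1 at 1.63 (1.5 to 1.78), Peg12 at 1.53 (1.19 to 1.97), Grb10 at 1.5 (1.38 to 1.64), Ppp1r9a at 1.44 (1.14 to 1.83) and Igf2. The remaining genes with at least 50 UMIs had ratios between 0.502 (Peg3) and 1.31 (H19).

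The gate itself did not hold the same cells in both libraries. Its marker Hand1, which encodes a transcription factor of heart and extraembryonic mesoderm, had a UMI in 23.1% of TKO and 97.8% of WT cells inside it. Bmp4 was detected in 52.9% of TKO and 76.6% of WT cells of the gate. The other way, Isl1 was detected in 51.8% of TKO and 10.2% of WT cells, and Mef2c in 73.8% and 26.0%. Hand2 was closer, at 67.1% of TKO and 62.5% of WT cells. Choosing cells by Hand1 does not match the libraries for these other markers. In the 213 TKO and 720 WT cells of the gate with a Hand1 UMI, a subset chosen after the values were seen, 10 of 30 imprinted genes were lower and 1 higher, against 9.03% and 6.87% of all genes. The median log2 ratio was -0.37. Dlk1 was at 142 CPM in TKO and 639 CPM in WT cells of this subset, a ratio of 0.222 (0.198 to 0.249). Mest had a ratio of 0.227 (0.207 to 0.247), Phlda2 of 0.212 (0.191 to 0.236), Cdkn1c of 0.238 (0.218 to 0.258) and Nnat of 0.259 (0.161 to 0.398). Meg3 was at 2602 CPM in TKO and 3009 CPM in WT cells, a ratio of 0.865 (0.839 to 0.891). H19 was at 9.79 CPM in TKO and 2.54 CPM in WT cells, a ratio of 3.85 (1.91 to 7.98) from 22 TKO and 15 WT UMIs, and it was the gene called higher. That call rests on leaving out 1 WT cell without Hand1 that held 19 of the 34 H19 UMIs of the WT gate, since in the whole gate the H19 ratio was 1.31 (0.854 to 2.04) with that cell and 2.96 (1.67 to 5.58) without it. Without the TKO cell that held the most H19, 8 UMIs, the ratio in the Hand1 subset was 2.47 (1.10 to 5.48). Among Hand1-positive cells the ratios of Dlk1, Mest and Phlda2 were thus less extreme than in the whole gate, and that of Cdkn1c more so. The part of other differences between the cells of the 2 libraries was not tested.

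The definitive endoderm gate, defined by at least 3 of 10 markers such as Foxa2, Sox17 and Hhex, held 625 TKO and 70 WT cells. Trh, a gate marker, had a UMI in 86.6% of TKO and 31.4% of WT cells inside it, and Gsc in 17.6% of TKO and 2.86% of WT cells. Of the 29 imprinted genes with at least 10 UMIs there, 9 were lower and 4 higher in TKO, against 9.06% and 12.0% of all genes in the gate, with a median log2 ratio of -0.57. Of the paternally expressed genes 4 of 16 were lower and 3 higher, and of the maternally expressed genes 5 of 12 were lower and 1 higher. The summed level in the gate had a ratio of 0.645 (0.609 to 0.684) over the 20 paternally expressed genes. Over the 12 maternally expressed genes it was 0.233 (0.224 to 0.243). Of this maternal sum, Meg3 made up 738 of 1370 CPM in TKO and 4110 of 5880 CPM in WT cells. The difference between the classes was not tested. The maternally expressed genes Meg3, Mirg and Cdkn1c were further apart than in lateral mesoderm. Meg3 was at 738 CPM in TKO and 4110 CPM in WT cells, a ratio of 0.180 (0.171 to 0.189), and Mirg had a ratio of 0.184 (0.118 to 0.294). Cdkn1c was at 244 CPM in TKO and 1244 CPM in WT cells, a ratio of 0.196 (0.180 to 0.215). The Meg3 interval did not meet that of lateral mesoderm, and no test of the difference was possible with 1 library per genotype.

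Dlk1 was lower in definitive endoderm too, at 12.6 CPM in TKO and 120 CPM in WT cells, a ratio of 0.105 (0.0751 to 0.146) from 85 TKO and 67 WT UMIs. Mest was at 109 CPM in TKO and 312 CPM in WT cells, a ratio of 0.349 (0.295 to 0.414), and Zdbf2 at 36.0 CPM in TKO and 113 CPM in WT cells, a ratio of 0.318 (0.240 to 0.427). Phlda2 was not called in this gate, at 84.9 CPM in TKO and 133 CPM in WT cells, a ratio of 0.639 (0.501 to 0.826). H19 had 59 UMIs in TKO cells and 0 in WT cells, which puts TKO at least 1.62-fold higher against a floor of 3 UMIs in WT. Sgce had a ratio of 2.17 (1.03 to 5.47) from 184 TKO and 7 WT UMIs, and Nnat of 6.93 (1.21 to 277) from 84 TKO UMIs and 1 WT UMI. The fourth higher call, named after its values were seen, was Peg12 with a ratio of 3.8 (0.648 to 153) from 46 TKO UMIs and 1 WT UMI. The higher calls of this gate thus rest on at most 7 WT UMIs each, and with gates that asked for 1 marker fewer no gene was called higher, with log2 ratios of -0.40 for Nnat and 0.04 for Sgce. Kcnq1ot1, with a ratio of 0.719 (0.602 to 0.864), and Grb10, with 0.789 (0.659 to 0.951), lay below 1 here. Of the other genes with at least 50 UMIs, Peg3, Impact, Slc38a4, Ndn and Peg10 had ratios between 0.622 and 0.684 with intervals below 1. Snrpn, Usp29, Gnas, Ppp1r9a, Igf2r and Igf2 had ratios between 0.688 and 1.21 with intervals that held 1.

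**Figure D3:**
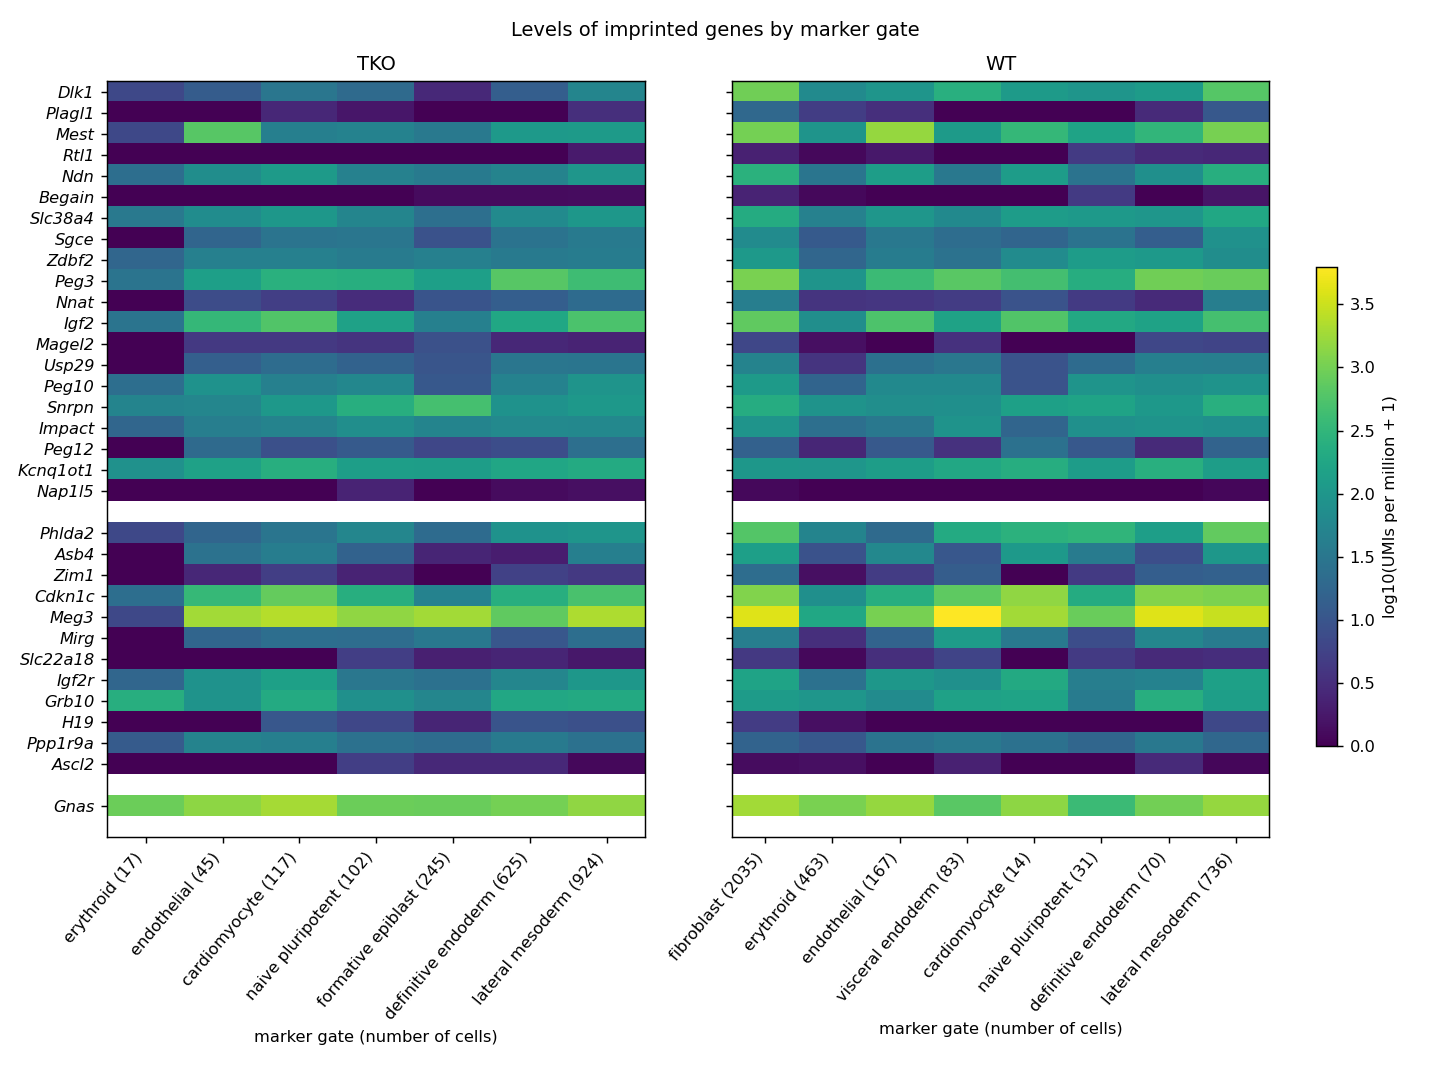
Levels of the imprinted genes by marker gate in the TKO library (left) and the WT library (right), as log10 of CPM plus 1, for gates with at least 10 cells in that library; cell numbers stand in brackets, and rows run from paternally expressed genes through maternally expressed genes to Gnas. Meg3 was at 5.57 CPM in TKO and 183 CPM in WT erythroid-gated cells and at or above 738 CPM in the other gates shown of either library, and Snrpn reached 476 CPM in TKO formative epiblast-gated cells.

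The other gates held too few cells of 1 library for a comparison, and their levels describe where each gene was used. In erythroid-gated cells, 17 in TKO and 463 in WT, most of the list was low: the summed level of the 33 genes was 1499 CPM in TKO and 2217 CPM in WT cells, and Gnas alone made up 886 CPM of this in TKO and 1099 CPM in WT cells. In endothelial-gated cells, 45 in TKO and 167 in WT, Mest was at 640 CPM in TKO and 1593 CPM in WT cells, its highest gate level in both libraries. Meg3 in these cells was at 1900 CPM in TKO and 1031 CPM in WT cells, and Cdkn1c at 356 CPM in TKO and 237 CPM in WT cells. Dlk1 was at 11.5 CPM in TKO and 93.3 CPM in WT endothelial-gated cells. In the 245 formative epiblast-gated TKO cells Snrpn was at 476 CPM and Meg3 at 1892 CPM, while Igf2 at 44.2, Peg10 at 10.1 and Dlk1 at 1.78 CPM were low, and 1 WT cell passed this gate. In cardiomyocyte-gated cells, 117 in TKO and 14 in WT, Cdkn1c was at 798 CPM in TKO and 1473 CPM in WT cells and Igf2 at 586 CPM in TKO and 582 CPM in WT cells. In the 83 visceral endoderm-gated WT cells Meg3 reached 6270 CPM, and 4 TKO cells passed this gate.

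A further pattern, singled out after the values were seen, concerned which cells held the rarer genes. Of the 33 genes, 11 were detected in under 10% of thinned cells of both libraries, which gave 55 pairs. Each pair was read in the order of the gene list only, and the reverse order was not counted. The share of cells with the second gene was taken among cells with and among cells without the first. A pair counted as apart when the exact 95% intervals of these shares did not meet. This held for 6 of the 55 pairs in WT and for 0 in TKO cells, and all 6 were found together more often. Pairs of other, equally rare genes were not counted, so no background share stands beside these counts. Fewer TKO than WT cells held Plagl1, 26 against 124, while more held H19, 98 against 33. Only the pairs among Plagl1, Nnat and H19 are described below. Among TKO cells, 5 of 26 with a Plagl1 UMI also held Nnat (19.2%, 6.55 to 39.4), against 6.34% of the 3168 without. Among WT cells, 54 of 124 with a Plagl1 UMI also held Nnat (43.5%, 34.7 to 52.7), against 5.25% of the 4265 without. H19 lay in the same WT cells: of 33 with H19, 12 held Nnat (36.4%, 20.4 to 54.9, against 6.11% of the others) and 8 held Plagl1 (24.2%, 11.1 to 42.3, against 2.66%). In TKO, 8 of 98 cells with H19 held Nnat (8.16%, 3.59 to 15.5) and 3 held Plagl1 (3.06%, 0.636 to 8.69), with intervals that met those of the other cells. For Plagl1 and Nnat the TKO share rests on 5 cells and its interval reaches into that of WT, so a difference between the libraries was not detectable at this depth. For H19 the TKO intervals met the WT intervals with Plagl1 once cells were thinned, at 1 of 44 TKO cells (2.27%, 0.0575 to 12.0) and 4 of 18 WT cells (22.2%, 6.41 to 47.6). With Nnat they lay apart after thinning, at 1 of 44 TKO cells (2.27%, 0.0575 to 12.0) and 7 of 18 WT cells (38.9%, 17.3 to 64.3), and with 1 library per genotype this was not tested.

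**Figure D4:**
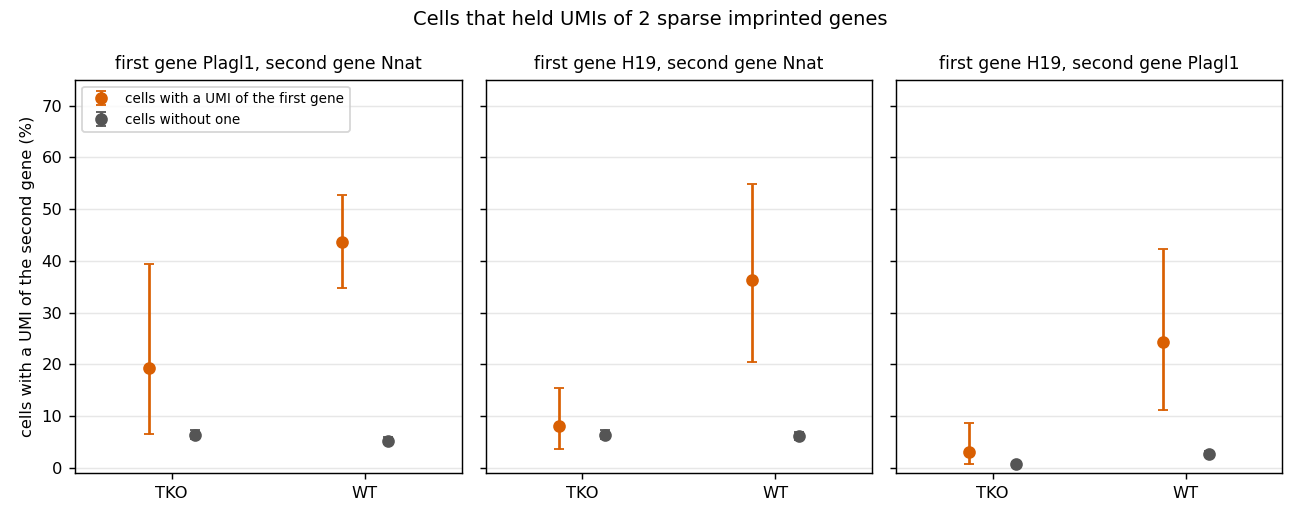
Share of cells, in percent, that held a UMI of the second gene among cells with a UMI of the first gene (orange) and among cells without one (grey), in all kept TKO and WT cells; bars are exact binomial 95% intervals. In WT the orange share was 43.5% for Nnat in cells with Plagl1 against 5.25% in the other cells, and in TKO it was 19.2% against 6.34%.

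The WT pairing of Plagl1 and Nnat was also read at matched depth and within the fibroblast and lateral mesoderm gates. These are the same WT cells in which the pair was picked, so these values are no independent check of it. With each WT cell thinned to 4000 UMIs, 41.0% of cells with Plagl1 held Nnat, against 4.14% of the others. Among thinned TKO cells, 0 of 7 with Plagl1 held Nnat (0%, 0 to 41.0), against 4.14% of the others. Within the WT fibroblast gate the shares were 44.4% (32 of 72) and 6.11%, and within the WT lateral mesoderm gate 43.5% (10 of 23) and 6.73%. H19 lay apart from the other cells with either partner in the fibroblast gate, but in the lateral mesoderm gate its pairing with Plagl1 rested on 1 cell, with intervals that met, and that with Nnat on 3 cells, with intervals that met when Nnat was taken first. Cells with none of the 3 genes had a median of 7801.5 UMIs and a median doublet score of 0.0702 in WT, and the 50 WT cells with 2 of them 9261 UMIs and 0.0979. The 8 WT cells with all 3 genes had a median of 7899 UMIs and a score of 0.0735, and 0 TKO cells held all 3. In WT erythroid-gated cells, assumed to lack these genes, thinned shares were 0.708% for Plagl1, 1.18% for Nnat and 0.236% for H19. Over all WT cells these shares were 2.07%, 4.90% and 0.448%. The UMIs were also concentrated: 20 cells held 89.8% of the 127 WT UMIs of H19, and 53.2% of the 188 TKO UMIs.

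Other imprinted genes in the same cells were set beside these. In the WT fibroblast gate, the 72 cells with Plagl1 held H19 at 48.9 CPM and Nnat at 356 CPM, and the 1963 cells without held H19 at 1.82 CPM and Nnat at 27.6 CPM. The ratios of cells with to cells without Plagl1 were 26.8 (16.2 to 44.6) for H19, where 18 of the 36 UMIs came from 1 cell, and 12.9 (11 to 15) for Nnat. Impact was higher in the cells with Plagl1, at a ratio of 1.58 (1.29 to 1.93), as were, by little, Mest at 1.08 (1.003 to 1.16) and Meg3 at 1.07 (1.03 to 1.10). Igf2r at 0.616 (0.482 to 0.775), Grb10 at 0.646 (0.490 to 0.837), Phlda2 at 0.805 (0.723 to 0.894) and Dlk1 at 0.906 (0.836 to 0.982) were lower. Igf2, Peg3, Cdkn1c and Gnas had intervals that held 1. In the WT lateral mesoderm gate, with 23 and 713 cells, all 19 H19 UMIs of the cells with Plagl1 lay in 1 cell, so no ratio is given for H19. Nnat had a ratio of 8.08 (5.88 to 10.9), Igf2r 0.436 (0.231 to 0.749) and Grb10 0.548 (0.305 to 0.910). Peg10 at 1.64 (1.09 to 2.38), Peg3 at 1.21 (1.04 to 1.39), Gnas at 1.14 (1.02 to 1.27) and Snrpn at 0.722 (0.506 to 0.9999) also had intervals without 1. In the TKO lateral mesoderm gate, with 15 and 909 cells, 16 of the 17 H19 UMIs of the cells with Plagl1 lay in 1 cell. Nnat had a ratio of 7.18 (4.22 to 11.6) and Grb10 0.513 (0.287 to 0.849). The 19 Nnat UMIs of the TKO cells with Plagl1 lay in 3 cells, and 1 of these held 10. In this TKO gate Dlk1 had a ratio of 2.97 (1.84 to 4.55), Mest 2.42 (1.72 to 3.32), Igf2 0.534 (0.385 to 0.723) and Igf2r 1.28 (0.765 to 2.01). Slc38a4 at 1.86 (1.22 to 2.72), Peg3 at 1.65 (1.34 to 2.01) and Meg3 at 1.16 (1.04 to 1.28) were also higher. Asb4, with 1 UMI in the cells with Plagl1, was lower at 0.161 (0.00406 to 0.901). Cells of 1 library are not replicates, and these intervals treat each UMI as independent, so they are too narrow where few cells hold most UMIs.

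Further imprinted genes were taken as 2 lists. Alleles were not measured for these genes either, so it is not shown that each is imprinted in these cells. Of 11 paternally expressed ones 9 had a row and 8 passed the minimum, and 2 were lower and 0 higher, against 12.3% and 13.5% of all genes. Their median log2 ratio was 0.22, with 5 of 8 above 0, against 0.14 over all genes and -0.91 for the 20 paternally expressed genes above. Dio3, the thyroid hormone deiodinase gene of the Dlk1-Meg3 cluster, was at 2.33 CPM in TKO and 6.32 CPM in WT cells, a ratio of 0.369 (0.282 to 0.479). Airn, the noncoding RNA antisense to Igf2r, was at 10.4 CPM in TKO and 21.9 CPM in WT cells, a ratio of 0.477 (0.419 to 0.541), close to that of Igf2r, from whose reads it cannot be told apart without strand. Sfmbt2, Mkrn3, Mcts2 and Nespas had ratios between 1.24 and 1.55, and Inpp5f and Zrsr1 0.949 and 1.09. Of 21 maternally expressed ones 18 passed, with 8 lower and 4 higher, against the same 12.3% and 13.5%. Their median log2 ratio was -0.20, with 10 below and 8 above 0, against -0.96 for the 12 maternally expressed genes above. Dcn, a collagen-binding proteoglycan of fibroblasts, was at 0.508 CPM in TKO and 29.0 CPM in WT cells, a ratio of 0.0175 (0.0102 to 0.0282). Tspan32, a tetraspanin of blood cells, had a ratio of 0.0382 (0.0253 to 0.0557), Klf14 0.119 (0.0677 to 0.197) and Pon3 0.200 (0.118 to 0.324). Calcr had a ratio of 4.24 (2.32 to 8.28), Atp10a 2.70 (1.62 to 4.66), Commd1 1.26 (1.21 to 1.3) and Copg2 1.14 (1.01 to 1.27). The other 2 higher calls, named after their values were seen, were Dlx5 at 2.64 (1.38 to 5.35) and Gatm at 2.24 (1.04 to 5.12), on 47 and 33 UMIs.

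Of 20 genes that keep or erase imprints 19 passed the minimum, and 1 was lower and 1 higher, against 12.3% and 13.5% of all genes. Their median log2 ratio was 0.51, with 15 of 19 above 0. Zfp57, the zinc finger gene whose protein binds methylated imprints, was at 6.79 CPM in TKO and 16.4 CPM in WT cells, a ratio of 0.414 (0.354 to 0.483). Dnmt3b, a de novo methyltransferase gene of early embryonic cells, was at 177 CPM in TKO and 22.7 CPM in WT cells, a ratio of 7.83 (7.29 to 8.42). Dnmt3b was also a marker of the formative epiblast gate, which 7.67% of TKO and 0.0228% of WT cells passed, and its part in that ratio was not tested. Dnmt1, which copies methylation at replication, had a ratio of 1.00 (0.943 to 1.07), Dnmt3a 0.999 (0.930 to 1.07), and Trim28, the cofactor of ZFP57, 1.23 (1.19 to 1.28). Zfp42 had a ratio of 1.97 (1.62 to 2.40) and Dppa3, which shields methylation in the zygote, 1.85 (1.35 to 2.55). The ratio of Tet1 was 1.85 (1.64 to 2.08), that of Tet2 0.675 (0.549 to 0.827) and that of Tet3 0.696 (0.632 to 0.767).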

How the data were processed

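The TKO and WT single-cell RNA libraries of day 5 were analysed, 1 per genotype, grouped by the genotype in the labels. For each gene and cell the authors deposited a raw count, a whole number read here as a number of UMIs. The submitters' processing notes name Seurat 3 and the build mm10 without their role. Not given in the sources used here are the aligner, the counting tool, the strand setting and the single-cell chemistry. The TKO table held 3223 cells under 3224 header names, so cells were read by position, and rows were matched by position because 116 row names ended differently. The headers shared 21 barcodes.

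Cells under 500 genes, under 1000 UMIs or above a mitochondrial share of 15% were dropped, which removed 26 TKO and 3 WT cells. Scrublet (scanpy 1.11.5, expected rate 0.06) marked 3 cells in each library, 0.0931% of TKO and 0.0683% of WT cells. The caller has therefore not worked, and doublets remain. Counts were summed over kept cells and scaled to CPM. The log2 ratio used a prior count of 0.5, and intervals were computed with scipy 1.17.1. A count of 0 was set to a floor of 3 UMIs for a bound, 0.0897 CPM in TKO and 0.0800 CPM in WT cells. A cell entered a gate when enough of its markers had a UMI: 6 gates were read first, a cell passing several entered none, and 3 broader ones, lateral mesoderm, definitive endoderm and formative epiblast, were read in the rest. In all, 882 TKO and 692 WT cells passed no gate, and 227 TKO and 97 WT cells passed several and entered none. A cell that passed only 1 of the 6 gates read first was kept there even when it also passed a broader gate, and is not in these counts. The ratio and interval steps were tested on simulated data.

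Members and lists were chosen with earlier results of these data known. Values are given for each member with at least 20 UMIs, in a gate for members with at least 50 UMIs, and in other lists for the up to 4 highest and 4 lowest ratios among genes of 50 or more UMIs, with the Tet genes and Zfp57. Alternatives varied the cell filters, scaling, minimum, fold and gates.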

Additional observations from a re-analysis of the deposited data

Results flagged for a closer look

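For 4 imprinted genes the TKO over WT ratio lay on opposite sides of 1 in lateral mesoderm-gated and definitive endoderm-gated cells, with 95% counting intervals that excluded 1 in each. The difference between the gates was not tested, since there was 1 library per genotype. Kcnq1ot1, the antisense RNA of the Kcnq1 cluster, had a ratio of 1.63 in lateral mesoderm-gated and 0.719 in definitive endoderm-gated cells. Grb10, the adaptor of insulin receptor signalling, had a ratio of 1.5 in lateral mesoderm-gated and 0.789 in definitive endoderm-gated cells. Nnat, the small membrane protein gene, had a ratio of 0.481 in lateral mesoderm-gated and 6.93 in definitive endoderm-gated cells, the second on 1 WT UMI, and with gates of 1 marker fewer its definitive endoderm log2 ratio was -0.40, below 0. Sgce, the epsilon-sarcoglycan gene, had a ratio of 0.433 in lateral mesoderm-gated and 2.17 in definitive endoderm-gated cells, the second on 7 WT UMIs, and with 1 marker fewer its log2 ratio there was 0.04. For Grb10 the definitive endoderm log2 ratio was -0.03 with 1 marker more and 0.03 with every gate a cell passes.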

How the results depend on the processing

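No paired analysis was possible because each genotype had 1 library, and for the same reason no replicate could be left out. Over the whole library the direction of every one of the 33 ratios was the same under the 10 alternative filters, scalings and cell selections (330 values), and the median of all imprinted genes ran from -1.12 to -0.57. The median for paternally expressed genes was -1.04 with median-of-gene-ratios scaling, which moved the median of all genes by -0.13, -0.94 with totals without mitochondrial, ribosomal and globin genes, -0.98 with cells weighted equally, -0.86 with thinned cells, -0.50 without fibroblast-gated cells and -1.08 without erythroid-gated cells. The median for maternally expressed genes was -0.64 without fibroblast-gated and -1.15 without erythroid-gated cells. With median-of-gene-ratios scaling, and again without erythroid-gated cells, 8 of 12 maternally expressed genes were lower, against 13.9% and 12.6% of all genes. With a minimum of 50 UMIs 13 of 31 genes were lower and 1 higher, against 10.2% of all genes each way. With a fold of 1.5, 22 genes were lower (14 paternally and 8 maternally expressed) and 5 higher, against 18.1% and 23.8% of all genes, with 18 lower and 3 higher of 30 in lateral mesoderm, against 15.8% and 20.4% of its genes, and 14 lower and 4 higher of 29 in definitive endoderm, against 17.7% and 23.7%. In lateral mesoderm the median was -0.65 with thinned cells, -0.71 with 1 marker fewer per gate and -0.37 in cells with a Hand1 UMI, where 10 genes were lower and 1 higher, against 9.03% and 6.87% of all genes. With 1 marker fewer, definitive endoderm held 41 WT cells, 10 of 28 genes were lower and 0 higher, against 11.4% and 12% of its genes, and the log2 ratio of Nnat was -0.40, against 2.22. The cause of these shifts was not tested. Taking the cells with a Hand1 UMI, leaving out the cell with the most H19 UMIs and leaving Meg3, Gnas and Cdkn1c out of the totals were chosen after seeing the data. Ratios changed direction within gates in 11 of 324 values for lateral mesoderm and 12 of 253 for definitive endoderm, where the 70 WT cells limit the depth.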
